A study of Mus musculus with 14 samples.

Results

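The gene segments of the alpha and beta chains of the T cell receptor were followed in sorted CD4 T cells of a lupus-prone mouse strain and its control. Members were all genes of the deposited count table whose symbol began with Trav, Traj, Trbv, Trbj or Trbd and a digit, or was Trac, Trbc1 or Trbc2. They numbered 194 of 26683 genes: 86 Trav, 60 Traj and Trac of the alpha chain, and 29 Trbv, 2 Trbd, 14 Trbj and 2 Trbc genes of the beta chain. RNA came from the spleens of female mice 8 months old: 4 C57BL/6J (B6) mice and 3 triple congenic (TC) mice designated B6.NZM-Sle1NZM2410/AegSle2NZM2410/AegSle3NZM2410/Aeg/LmoJ. The latter have a B6 background with 3 chromosome intervals of the lupus-prone NZM2410 strain, named Sle1, Sle2 and Sle3. Each mouse gave a library of follicular helper cells (Tfh), sorted as CD4+CD44+CD162lo/-PD-1+, and a library of naive cells (Tn), sorted as CD4+CD44-. The 14 libraries thus form 4 groups, with 4 libraries each of Tfh and Tn from B6 and 3 each from TC. B6 mice are numbered 1 to 4 and TC mice 1, 2 and 4, as in the labels, and per-library values are given in that order.

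A T cell builds its alpha chain by joining a V to a J segment, and its beta chain by joining V, D and J segments. The joined exon is spliced to a constant exon, so a mature transcript carries 1 V and 1 J segment, and the joints and the pairing of chains give each clone its own antigen receptor. Alpha rearrangement starts with J segments far from the constant gene and can proceed to nearer ones in the same cell. Tfh cells are antigen-selected helpers of germinal centre B cells, whereas naive cells carry the repertoire released from the thymus. Counts per segment tell how much RNA overlapped each V or J segment, and not which V was joined to which J.

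Library totals ran from 15162309 to 20191558 counts, and receptor genes took 0.448% ± 0.026 of them in Tfh and 0.346% ± 0.007 in Tn of B6 (SD, n = 4). In TC they took 0.386% ± 0.012 in Tfh and 0.315% ± 0.008 in Tn (n = 3). The sort gene Pdcd1, which encodes PD-1, separated the cell types, as did the Tfh cytokine Il21. In B6, Pdcd1 averaged 688 counts per 1e6 library counts (CPM) in Tfh and 7.97 in Tn, and Il21 averaged 198.5 and 0.106. Among the signalling partners of the receptor, the CD3 chains and Cd4, 4 of 5 genes fell in TC against B6 in either cell type (median log2 fold change -0.28 in Tfh and -0.15 in Tn). The 3 regulatory T cell genes Foxp3, Il2ra and Ikzf2 rose in Tfh against Tn in both strains, and their summed level was 1092 to 1443 CPM in B6 Tfh against 70.4 to 98.7 in Tn of that strain, and 1459 to 1690 in TC Tfh against 54.3 to 64.9 in Tn. Of the 2 CD8 genes, Cd8a was at 0 in all 7 Tfh libraries, and Cd8b1 stood at 6.20 to 7.87 CPM in Tfh, 15.9 to 18.8 in B6 Tn and 9.07 to 12.8 in TC Tn. Invariant NKT genes are given with the invariant segments, and summed B cell genes were 15.9 to 28.2 CPM in Tfh and 0.805 to 2.18 in Tn. The 2 plasma cell genes summed to 5.74 to 17.5 CPM in B6 Tfh and 2.56 to 4.25 in TC Tfh, and the 4 myeloid genes to 8.61 to 16.3 and 3.93 to 6.91, neither with overlap between strains. In Tn the strains overlapped for both lists. The part of these cells in the segment results was not tested. Of the gamma delta T genes, Trdc, the delta constant gene, stood at 39.3 CPM in the Tfh library of B6 mouse 2 and at 2.53 to 4.47 in the other B6 Tfh libraries, so results were repeated without both libraries of that mouse.

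J segments were the receptor RNA that differed most between strains. Summed over 60 genes, Traj segments stood at 49.0, 32.3, 40.4 and 41.6 CPM in B6 Tfh and at 105, 91.1 and 79.6 in TC Tfh, a ratio of means of 2.25. In Tn their sum was 30.9, 28.6, 27.8 and 31.7 CPM for the B6 mice, and for the TC mice it was 63.6, 82.5 and 63.7, a ratio of 2.35. Every TC library was above every B6 library of its cell type. Trbj segments showed the same order, at 95.1 to 123 CPM in B6 Tfh against 146 to 157 in TC Tfh, and 71.2 to 93.0 in B6 Tn against 130.1 to 147 in TC Tn. The V segments and constant genes did not follow them. Trbv counts were lower in TC, at 531, 496.6 and 555.4 CPM in TC Tfh against 690.8 to 770.5 in B6 Tfh, and at 446 to 496.6 in TC Tn against 532.5 to 600.5 in B6 Tn. Summed Trav counts were 0.883 of the B6 mean in TC Tfh and 0.935 in TC Tn.

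**Figure D1:**
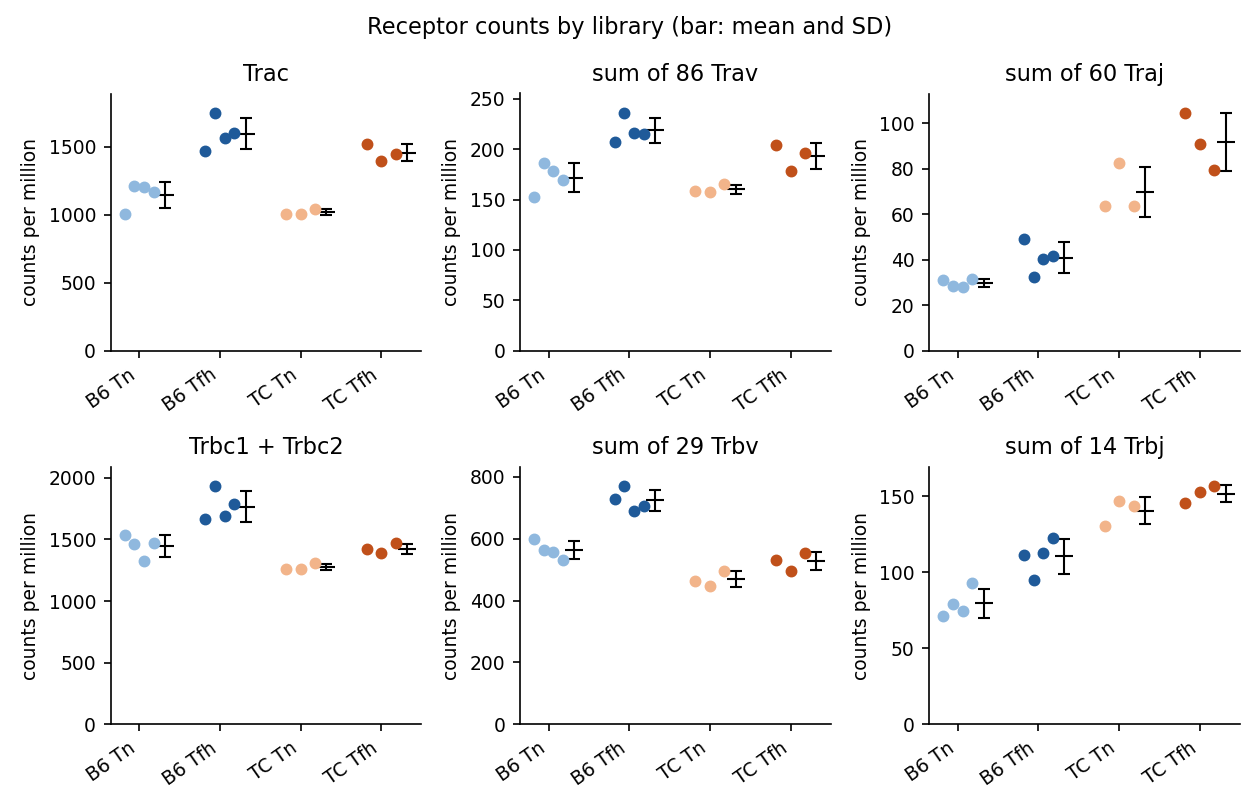
Summed counts per 1e6 library counts (CPM) of each receptor gene class, 1 point per library, with the mean and SD of each group beside the points (n = 4 for B6, n = 3 for TC). The TC points lie above all B6 points of the same cell type for Traj and Trbj and below them for Trbv.

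Set against the constant exon they are spliced to, the J segments separated the strains further. For each 100 Trac counts there were 3.33, 1.84, 2.58 and 2.60 Traj counts in B6 Tfh, and 6.88, 6.51 and 5.50 in TC Tfh. In Tn the same ratio was 3.09, 2.36, 2.32 and 2.71 in B6 and 6.31, 8.18 and 6.10 in TC. Thus the strain, and not the cell type, ordered the libraries, and the Tfh and Tn ranges overlapped within each strain. Per 100 Trbc counts, Trbj counts were 4.63 to 6.87 over the 8 B6 libraries and 10.3 to 11.6 over the 6 TC libraries. Trav counts per 100 Trac were 13.7 ± 0.273 in B6 Tfh and 13.3 ± 0.428 in TC Tfh, with overlap, and 14.98 ± 0.41 in B6 Tn and 15.7 ± 0.138 in TC Tn, where TC was higher without overlap.

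In the test of levels over all 13427 expressed genes (edgeR, log2 fold changes given ± standard error, adjusted p by Benjamini-Hochberg), 57 of 141 tested members were called between strains in Tfh and 46 in Tn, against 49.7% and 52% of all genes. Both shares of members are below those backgrounds. Of the 38 tested Traj segments 25 rose and 0 fell in TC Tfh, where 24.2% of all genes rose and 25.5% fell, with a median log2 fold change of 1.23 against -0.02 over all genes. In TC Tn 25 rose and 0 fell as well, where 25.9% of all genes rose and 26.1% fell, with a median of 1.17. Some tested Traj segments passed the filter on low counts only through TC libraries, so this set leans towards rises. Traj13, for example, had 3 to 9 counts in B6 libraries and 12 to 31 in TC libraries. With no filter, 25 of 60 Traj segments rose in Tfh and 24 of 60 in Tn, with 0 falls. Among the 14 Trbj segments 10 rose in Tfh (median 0.43) and all 14 in Tn (median 0.83), with 0 falls in either. Of the 22 tested Trbv segments 0 rose, 8 fell in Tfh (median -0.28) and 5 fell in Tn (median -0.30). Trav segments gave 3 rises and 8 falls in Tfh and 0 calls in Tn, where edgeR gave 3 of 62 an unadjusted p below 0.05 and DESeq2 called 1. The counts of 0 for Traj falls, Trbj falls and Trbv rises were also 0 at an unadjusted p below 0.05 and by DESeq2. The 2 strain comparisons shared 35 calls, 61.4% of those in Tfh and 76.1% of those in Tn, all in the same direction. The overlap over all genes is not given here, so no excess among members is claimed. P-values measure the spread between libraries of separate mice, with 1 estimate per gene shared by the 4 groups. Shares of tested Trbv segments varied more in Tfh (median coefficient of variation 24.0% in B6 and 25.1% in TC) than in Tn (6.82% and 8.13%). For V segments the shared estimate may thus be too small within Tfh and too large within Tn. In bulk RNA, fewer cells that use a segment and less RNA of it per cell cannot be told apart.

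The sequences of a few J segments show what these genes are. A functional J segment encodes the end of the variable domain, and most carry the motif phenylalanine, glycine, any residue, glycine. It was searched for in the DNA as TTNGGNNNNGG, which also admits leucine in place of phenylalanine. This pattern was present in 46 of 60 Traj segments (44 of 51 annotated as genes and 2 of 9 annotated as pseudogenes) and in 11 of 14 Trbj segments, and in none of either class on the opposite strand. The match began with bases that spell phenylalanine in 43 of the 46 and in all 11, and leucine in Traj38, Traj44 and Traj55. The search took no account of the reading frame, so these are not counts of encoded residues. The segments below are from GENCODE M21 (GRCm38, the build of mm10), all on the plus strand, 5′ to 3′, with the pattern in capitals. Traj1 (chr14:54218814-54218842), Traj2 (chr14:54217836-54217901), Traj3 (chr14:54217292-54217357) and Traj6 (chr14:54212688-54212749) lie at the end of the cluster next to Trac, and the last 3 are among the segments with the most counts. Traj34 (chr14:54184699-54184756) and Traj42 (chr14:54175773-54175836) lie farther away, in the portion of the cluster where levels differed less. Trbj2-6 (chr6:41543598-41543645), annotated as a pseudogene, is set beside its functional neighbour Trbj2-7 (chr6:41543810-41543856). Traj3, although annotated as a gene, lacks the motif in its printed sequence. Other segments annotated as genes also lack the pattern, among them Traj33 and Trbj1-6, so its absence alone does not mark a segment as without function.
Traj1: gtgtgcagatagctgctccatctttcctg
Traj2: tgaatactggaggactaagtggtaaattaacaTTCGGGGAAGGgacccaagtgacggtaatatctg
Traj3: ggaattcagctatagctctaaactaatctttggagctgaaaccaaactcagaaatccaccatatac
Traj6: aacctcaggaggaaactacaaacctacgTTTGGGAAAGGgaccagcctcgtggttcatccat
Traj34: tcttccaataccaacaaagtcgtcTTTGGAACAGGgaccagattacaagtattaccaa
Traj42: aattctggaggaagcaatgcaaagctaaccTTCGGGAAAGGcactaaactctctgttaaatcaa
Trbj2-6: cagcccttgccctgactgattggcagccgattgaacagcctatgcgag
Trbj2-7: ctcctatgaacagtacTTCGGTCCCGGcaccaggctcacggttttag

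Traj2, the Traj segment with the highest mean share, stood at 2.97, 2.07, 2.47 and 2.57 CPM in B6 Tfh and 8.80, 7.45 and 6.50 in TC Tfh. In Tn the B6 values were 1.49, 1.69, 1.37 and 1.34 CPM and the TC values 5.21, 6.02 and 4.48. No TC value overlapped a B6 value of the same cell type, and the level rose by 1.58 ± 0.17 in Tfh (adjusted p = 1.4e-06) and 1.79 ± 0.18 in Tn (adjusted p = 4.8e-07). For Traj3 the values were 2.05, 1.35, 1.67 and 1.82 CPM in B6 Tfh against 6.79, 6.79 and 6.33 in TC Tfh, and 1.39, 0.983, 1.15 and 0.694 in B6 Tn against 4.40, 5.16 and 3.11 in TC Tn. Its rise was 1.94 ± 0.21 in Tfh (adjusted p = 1.67e-06) and 1.96 ± 0.23 in Tn (adjusted p = 2.17e-06). Traj6 rose by 1.62 ± 0.22 and 1.74 ± 0.23 (adjusted p = 1.79e-05 and 9.61e-06). The rises of Traj2, Traj3 and Traj6 between strains passed the threshold under all 20 alternatives in both cell types.

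Segments annotated as pseudogenes took part in the difference. Traj1, a pseudogene that lacks the motif, was chosen after its values were seen as the segment nearest to Trac, at 1.19, 0.778, 1.83 and 1.07 CPM in B6 Tfh and 4.25, 3.96 and 3.36 in TC Tfh. In Tn the B6 values were 0.891, 0.710, 0.878 and 0.534 CPM and the TC values 2.36, 3.50 and 2.35, again without overlap, and it rose by 1.65 ± 0.26 in Tfh and 1.81 ± 0.28 in Tn (adjusted p = 6.03e-05 and 3.88e-05). The 9 Traj pseudogenes together held 7.05%, 4.82%, 8.13% and 5.68% of Traj counts in B6 Tfh and 10.1%, 9.34% and 8.24% in TC Tfh. In Tn they held 5.34% to 7.05% in B6 and 8.87% to 9.52% in TC, so the share was above all B6 values in the TC libraries of either cell type. Trbj2-6, the beta pseudogene, stood at 10.7, 8.61, 10.8 and 13.3 CPM in B6 Tfh against 15.4, 14.97 and 14.5 in TC Tfh. In Tn its B6 values were 6.98, 8.14, 5.65 and 8.23 CPM and its TC values 12.1, 14.1 and 12.7. It rose by 0.46 ± 0.14 in Tfh and 0.81 ± 0.14 in Tn (adjusted p = 0.00959 and 0.000119). Trbj2-7, chosen after its values were seen as the neighbour of that pseudogene, rose by 0.42 ± 0.13 and 0.58 ± 0.13 (adjusted p = 0.0109 and 0.00119). Per base of segment, Trbj2-6 had the highest level of the Trbj genes in 8 of 14 libraries, with Trbj1-6 or Trbj1-2 above it in the others. Trbj1-6 rose by 0.43 ± 0.13 in Tfh and 0.85 ± 0.13 in Tn (adjusted p = 0.00935 and 3.69e-05).

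The rise of the Traj segments was graded along the chromosome. The 60 segments lie at chr14:54155005-54218842, upstream of Trac, and were taken in 4 blocks of 15 by distance from it, a division made after the values were seen. In the nearest block, 1.68 to 17.3 kb from Trac, all 15 tested segments rose in TC Tfh and 14 in TC Tn, with median log2 fold changes of 1.65 and 1.66. In the block at 18.7 to 32.6 kb, 9 of 14 rose in Tfh and 10 in Tn (medians 0.99 and 1.12), and at 34.4 to 48.1 kb only 1 of 8 rose in each (medians 0.18 and 0.53). The farthest block had 1 tested segment, which was not called. Over the 38 tested segments the log2 fold change and the distance had a Spearman rho of -0.83 (Pearson r -0.80) in Tfh and -0.71 (Pearson r -0.66) in Tn. The same measure for Tfh against Tn in B6 was 0.18 (Pearson r 0.14). These coefficients are across segments of the same libraries, which are not independent, and are given as a description. Segments close to Trac were also those with more counts, so tested segments are fewer at long distance. Some tested segments passed the filter on low counts only through TC libraries, where they are higher.

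**Figure D2:**
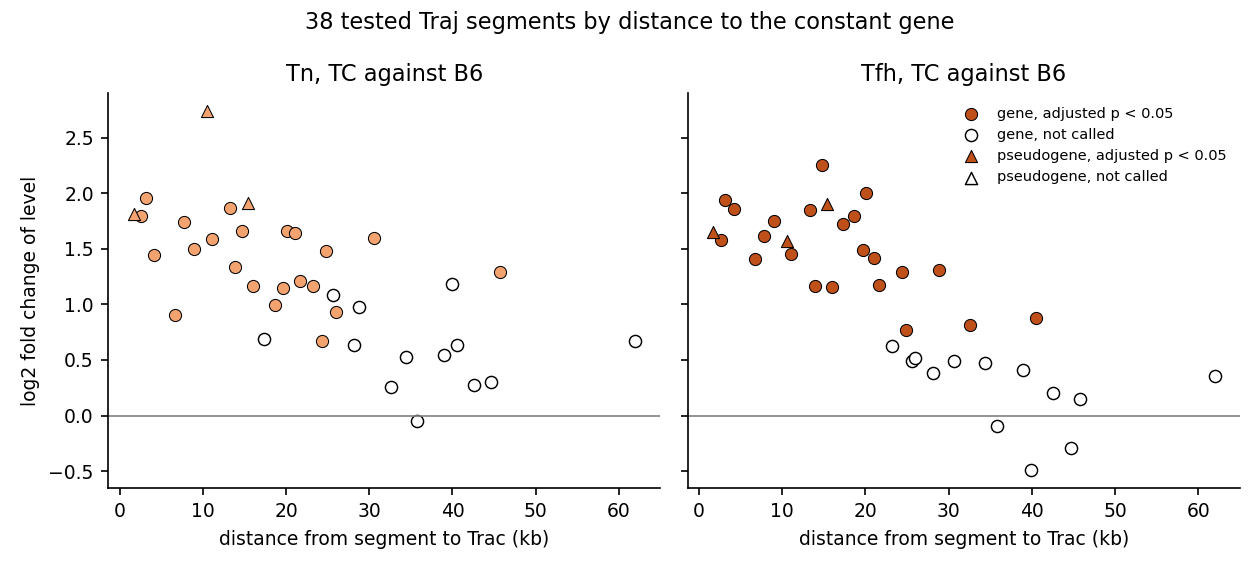
Log2 fold change of level in TC against B6 for the 38 tested Traj segments, by distance from the segment to Trac in kb, in Tn (left) and Tfh (right). Filled symbols had an adjusted p below 0.05 and triangles are pseudogenes. Every value within 17.3 kb of Trac is 0.69 or higher, and beyond 34.4 kb the values run from -0.49 to 1.29.

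Summed counts per block gave the same order without a filter on single segments. The nearest block was 3.14-fold higher in TC Tfh than in B6 Tfh and 3.20-fold in Tn, the next 2.02-fold and 2.07-fold, the next 1.21-fold and 1.42-fold, and the farthest 0.994 and 1.17. The nearest block held 43.1% ± 4.35 of Traj counts in B6 Tfh (SD, n = 4) and 42.9% ± 3.47 in B6 Tn, but 60.4% ± 3.81 in TC Tfh (n = 3) and 58.1% ± 2.03 in TC Tn. The mean distance of a Traj count from Trac was 22.2, 26.8, 22.5 and 23.5 kb in B6 Tfh and 22.5, 24.3, 23.2 and 25.0 in B6 Tn. In TC it was 17.0, 16.9 and 18.5 kb in Tfh and 18.3, 17.7 and 19.3 in Tn, below all B6 libraries.

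Usage here is a segment's share of its class counts, tested with the class total as the size of the library. For J segments these counts include pseudogenes and some genes that lack the motif, such as Traj3, so a share need not be that of joined segments. By usage 30 of 138 members differed between strains in Tfh and 11 in Tn, against 49.5% and 51.7% of all genes. In Tfh 15 rose and 15 fell, against 24% and 25.4% of all genes, and in Tn 6 rose and 5 fell, against 25.6% and 26.1%. The adjustment was over all genes tested, so 0.05 is not an error rate among segments. At an unadjusted p below 0.05 there were 44 members in Tfh and 20 in Tn. Of the Traj segments, 8 rose and 7 fell in share in Tfh, and 4 rose and 3 fell in Tn. These counts depended on single libraries: the rises in Tfh were 2, 3 and 3 without the Tfh library of TC mouse 1, TC mouse 2 or B6 mouse 2. The falls in Tn were 0 without the Tn library of TC mouse 2, and 1 without that of B6 mouse 3 or 4. With DESeq2 the Tfh rises were 4. Of those in the 15 nearest to Trac, 6 rose and 0 fell in Tfh and 4 rose and 0 fell in Tn, while in the third block 0 rose and 6 fell in Tfh and 0 rose and 2 fell in Tn. Traj3 took 4.19%, 4.18%, 4.13% and 4.39% of Traj counts in B6 Tfh and 6.49%, 7.46% and 7.95% in TC Tfh, without overlap (0.78 ± 0.19, adjusted p = 0.00266). In Tn its share rose by 0.76 ± 0.21 (adjusted p = 0.00596). The share of Traj2 rose by 0.60 ± 0.15 in Tn (adjusted p = 0.00286) and by 0.41 ± 0.14 in Tfh (adjusted p = 0.0198). The Tfh call of Traj2 was lost without the Tfh library of TC mouse 1 (adjusted p = 0.0559) and with no filter on low counts (0.0734). Traj8, annotated as a pseudogene of 37 bases without the motif, rose by 1.57 ± 0.44 in Tn (adjusted p = 0.00594). Its share went from 0.394% to 0.962% of Traj counts in B6 to 1.54% to 2.36% in TC. The B6 values rest on very few reads, since 3 counts are 0.54% of Traj counts on average in B6 Tn. As for levels, some tested Traj segments passed the filter on low counts only through TC libraries, where they are higher.

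At the other end, Traj34 took 4.30%, 3.38%, 1.47% and 3.48% of Traj counts in B6 Tfh and 1.41%, 1.16% and 1.43% in TC Tfh (-1.24 ± 0.33, adjusted p = 0.00506). In Tn it took 2.10% to 3.55% in B6 and 0.745% to 1.77% in TC (-1.22 ± 0.37, adjusted p = 0.00992). The Tn call of Traj34 was lost without the Tn library of TC mouse 2 (-0.95, adjusted p = 0.0595). Its level, in contrast, had log2 fold changes of -0.09 ± 0.34 and -0.05 ± 0.38 (adjusted p = 0.836 and 0.932), so its share fell in a class total that was larger. Traj42 had shares of 1.98%, 6.75%, 2.53% and 3.23% in B6 Tfh and 0.733%, 1.74% and 1.36% in TC Tfh, where B6 mouse 2 was far above the others, and fell by 1.48 ± 0.39 (adjusted p = 0.0044). Traj27 fell by 0.78 ± 0.24 in Tfh (adjusted p = 0.013). Traj31, Traj37 and Trbj1-2 had Tn calls with adjusted p of 0.0215, 0.041 and 0.0376, of which 5 of 21, 11 of 21 and 9 of 22 alternatives lost the call. A Traj segment rests on few reads, since the class held 507 to 1773 counts in a library, and 3 counts are 0.40% of it on average in B6 Tfh.

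The constant genes that changed between strains fell, whereas every called J segment rose in level. Trac, the alpha constant gene, stood at 1472, 1751, 1565 and 1599 CPM in B6 Tfh and 1524, 1398 and 1447 in TC Tfh, ranges that overlapped (-0.14 ± 0.08, adjusted p = 0.139). In Tn the B6 values were 1002, 1211, 1200 and 1170 CPM and the TC values 1008, 1008 and 1043 (-0.20 ± 0.08, adjusted p = 0.0357). That call was lost under 8 of 20 alternatives (adjusted p from 0.00408 to 0.0998), among them each Tn library left out in turn except that of B6 mouse 1. Trbc1 and Trbc2 encode nearly identical constant regions, and reads may have been divided between them, so their separate values are uncertain. Trbc1 fell by 0.45 ± 0.05 in TC Tfh (adjusted p = 5.32e-06) and by 0.33 ± 0.05 in TC Tn (adjusted p = 6.91e-05). Trbc2 fell by 0.25 ± 0.08 in Tfh (adjusted p = 0.0121), a call lost without both libraries of B6 mouse 2 (-0.18, adjusted p = 0.0518). Their sum was 1665, 1934, 1687 and 1784 CPM in B6 Tfh against 1419, 1387 and 1468 in TC Tfh. Both D segments were tested, and Trbd2 fell in TC Tfh (-0.51 ± 0.18, adjusted p = 0.0266), a call lost without the Tfh library of B6 mouse 1 or of TC mouse 2 or 4 (adjusted p up to 0.137), while Trbd1 was not called (0.20 ± 0.10, adjusted p = 0.104).

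Genes that act in rearrangement were at or near 0 in these mature cells, apart from Dntt. Rag1 and Rag2, which cut the segments, were at 0 in 11 and 12 of the 14 libraries, and Ptcra, the surrogate alpha chain of thymocytes, was at 0 in all 14. Dntt, which adds random bases at the joints, averaged 13.7 CPM ± 1.85 in B6 Tn and 1.47 ± 0.0599 in TC Tn, a fall of 3.25 ± 0.23 (adjusted p = 1.21e-08). It was at 0.117 CPM or less on average in either Tfh group. Its part in the segment results was not tested.

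Trbv13-2 had the highest share of Trbv counts in 13 of 14 libraries, at 12.9%, 15.8%, 13.9% and 12.9% in B6 Tfh and 13.8%, 14.3%, 13.9% and 14.5% in B6 Tn. In TC it took 15.5%, 12.01% and 12.2% in Tfh and 15.4%, 14.7% and 15.7% in Tn. In the Tfh of TC mouse 4 Trbv3 was above it, at 14.7%. Trbv3, Trbv2, Trbv13-1 and Trbv16 followed, with mean shares over the 4 groups of 10.2%, 9.94%, 8.67% and lower. The order depended on the group, since in Tn of both strains Trbv1 and Trbv31 were above Trbv16, and Trbv3 was above Trbv2 in B6 Tn (9.29% and 8.96%) but below it in TC Tn (8.00% and 11.1%). Trbv13-1 ranged from 7.92% to 9.31% in B6 Tn but from 5.79% to 10.4% in B6 Tfh. In the alpha chain no segment held as much: Trav9-2 had the highest mean share over the 4 groups, 4.32%, followed by Trav14-1 (4.17%), Trav4-4-dv10 (3.94%), Trav14-2 (3.91%) and Trav9-4 (3.86%). In each Tn library, however, a Trav14 segment was highest. Trav counts are less certain per segment, because parts of the alpha locus are duplicated. Of 86 Trav segments 52 were at least 97% identical in sequence to another, and 6 had an identical copy, whereas none of the 29 Trbv segments reached that identity. Among Trbj segments, Trbj1-6 (9.67%), Trbj2-6 (9.51%) and Trbj1-2 (8.13%) had the highest mean shares, and among Traj segments Traj2, Traj6 (6.50%), Traj3, Traj9 (4.00%) and Traj7 (3.87%).

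**Figure D3:**
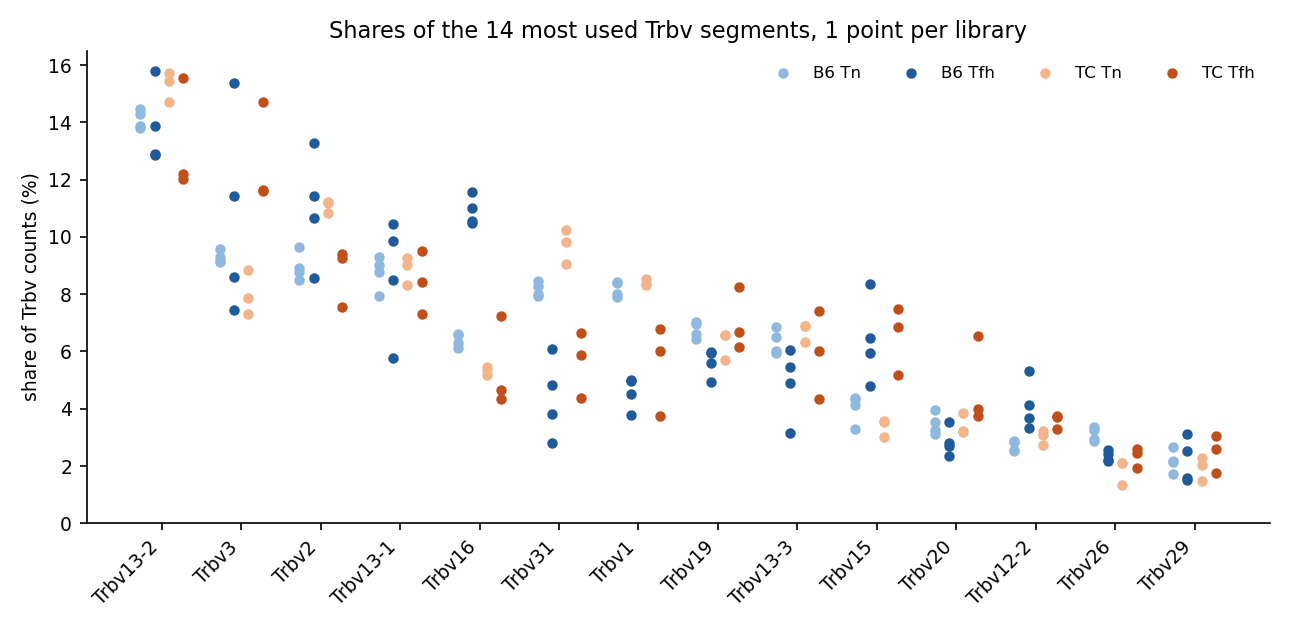
Share of all Trbv counts of a library held by each of the 14 most used Trbv segments, 1 point per library and 1 colour per group. Points of Tn libraries lie close together for each segment, while those of Tfh libraries are spread, as for Trbv3 and Trbv31.

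Tfh differed from Tn in which V segments they used, and for a few segments the direction recurred in each mouse. By usage, 28 of 138 members were called between cell types in B6 and 16 in TC, against 70.2% and 66.1% of all genes. In B6 9 rose and 19 fell, against 36.8% and 33.4% of all genes, and in TC 6 rose and 10 fell, against 33.7% and 32.4%. Both shares of members are below those backgrounds. Since most genes were called, adjustment over all genes is mild for members, and 0.05 is not an error rate among segments. At an unadjusted p below 0.05 the usage fit gave 30 members in B6 and 21 in TC. The comparisons had 8 calls in common, 28.6% of those in B6 and 50% of those in TC, and 7 of them had the same direction. These were falls of Trav14-2, Trav14-3, Trav14n-3, Trbv1 and Trbv31 and rises of Trbv12-1 and Trbv15. The eighth, Trbv2, rose in B6 and fell in TC. For these common calls too, the overlap over all genes is not given. By level, 38 of 141 members were called in B6 and 28 in TC, against 70.3% and 66.1% of all genes. In B6 28 rose and 10 fell, against 36.9% and 33.3% of all genes, and in TC 19 rose and 9 fell, against 33.7% and 32.4%. Of the Trbj segments 10 of 14 rose in Tfh of B6 (9 by DESeq2) and 0 in Tfh of TC, where edgeR gave 0 an unadjusted p below 0.05 and DESeq2 called 0. The difference between strains was called for 0 of 14 by either tool, with 5 at an unadjusted p below 0.05. The constant gene Trac rose in Tfh of both strains (0.35 ± 0.07 in B6, adjusted p = 0.0003, and 0.41 ± 0.08 in TC, adjusted p = 0.000291).

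Trbv1 took 4.99%, 4.98%, 4.52% and 3.79% of Trbv counts in B6 Tfh and 8.41%, 7.91%, 8.01% and 8.396% in B6 Tn. In TC it took 6.79%, 6.00% and 3.74% in Tfh and 8.53%, 8.32% and 8.35% in Tn. Each Tfh library was below each Tn library, and the share fell by 0.84 ± 0.14 in B6 (adjusted p = 7.38e-05) and 0.61 ± 0.16 in TC (adjusted p = 0.00401). Trbv31, named after its values were seen, behaved alike, at 6.10%, 3.81%, 4.81% and 2.80% in B6 Tfh against 7.93% to 8.48% in B6 Tn and at 4.36%, 5.87% and 6.63% in TC Tfh against 9.07% to 10.2% in TC Tn. It fell by 0.90 ± 0.19 in B6 and 0.79 ± 0.23 in TC (adjusted p = 0.00119 and 0.00867). This is the V segment that lies downstream of the constant genes in the opposite orientation to the others.

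Trbv15 rose, from 4.12%, 3.28%, 4.35% and 4.37% in B6 Tn to 8.35%, 4.79%, 6.48% and 5.96% in B6 Tfh, and from 3.01%, 3.58% and 3.53% in TC Tn to 5.17%, 6.85% and 7.49% in TC Tfh. The rise was 0.66 ± 0.16 in B6 (adjusted p = 0.00265) and 0.95 ± 0.20 in TC (adjusted p = 0.000967), and it was seen in all 7 mice. Trbv12-1, a segment of lower use, rose by 0.73 ± 0.18 in B6 and 1.083 ± 0.23 in TC (adjusted p = 0.00218 and 0.000599). Its relative Trbv12-2 rose in B6 by 0.62 ± 0.12 (adjusted p = 0.000154) and was not called in TC (0.24, adjusted p = 0.136), and the difference between strains was not called. The calls of Trbv1, Trbv15 and Trbv12-1 passed the threshold under all 21 alternatives in both strains.

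In the alpha chain the Trav14 family was the clearest case. Its 5 segments together took 18.7%, 14.4%, 12.3% and 13.2% of Trav counts in B6 Tfh and 21.0%, 20.5%, 20.5% and 20.7% in B6 Tn. In TC they took 11.5%, 12.6% and 10.6% in Tfh and 20.2%, 20.5% and 20.4% in Tn. The Tn libraries of both strains thus lay within 20.2% to 21.0%, and the Tfh library was lower in all 7 mice. With the families of the table summed before the fit, Trav14 fell by 0.50 ± 0.09 in B6 (adjusted p = 0.000158) and by 0.82 ± 0.11 in TC (adjusted p = 7.26e-06). Reads shared with copies that are not in the table, such as Trav14d-1 and Trav14d-2, are not recovered by the sum. Single segments fell as well, though their separation is uncertain: Trav14-2 by 0.75 ± 0.15 and 0.67 ± 0.18, Trav14-3 by 0.65 ± 0.16 and 0.90 ± 0.19, and Trav14n-3 by 0.72 ± 0.15 and 0.66 ± 0.18 in B6 and TC. The adjusted p of these 6 values lay between 0.00027 and 0.00357. Trav14-1 fell in TC (-1.03 ± 0.26, adjusted p = 0.00299).

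The Trav4 family went the other way. It took 8.11%, 9.81%, 9.10% and 11.8% in B6 Tfh against 5.39% to 6.13% in B6 Tn, and 7.80%, 6.76% and 12.3% in TC Tfh against 5.51% to 6.26% in TC Tn. As a family it rose by 0.75 ± 0.15 in B6 (adjusted p = 0.000411) and 0.61 ± 0.18 in TC (adjusted p = 0.00795). Its member Trav4-2 rose in B6 from 0.487% to 0.822% in Tn to 1.28% to 2.41% in Tfh (1.52 ± 0.24, adjusted p = 2.19e-05), and had an adjusted p of 0.0519 in TC (0.68). Trav6-7-dv9 rose by 1.00 ± 0.21 and Trav21-dv12 by 0.86 ± 0.20 in B6 (adjusted p = 0.000351 and 0.000865). The J segment Trbj1-2 fell in B6, from 9.25% to 10.5% of Trbj counts in Tn to 6.35% to 7.79% in Tfh (-0.40 ± 0.10, adjusted p = 0.00116). The B6 calls of Trav4-2, Trav6-7-dv9, Trav21-dv12 and Trbj1-2 passed the threshold under every alternative run for the segment.

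**Figure D4:**
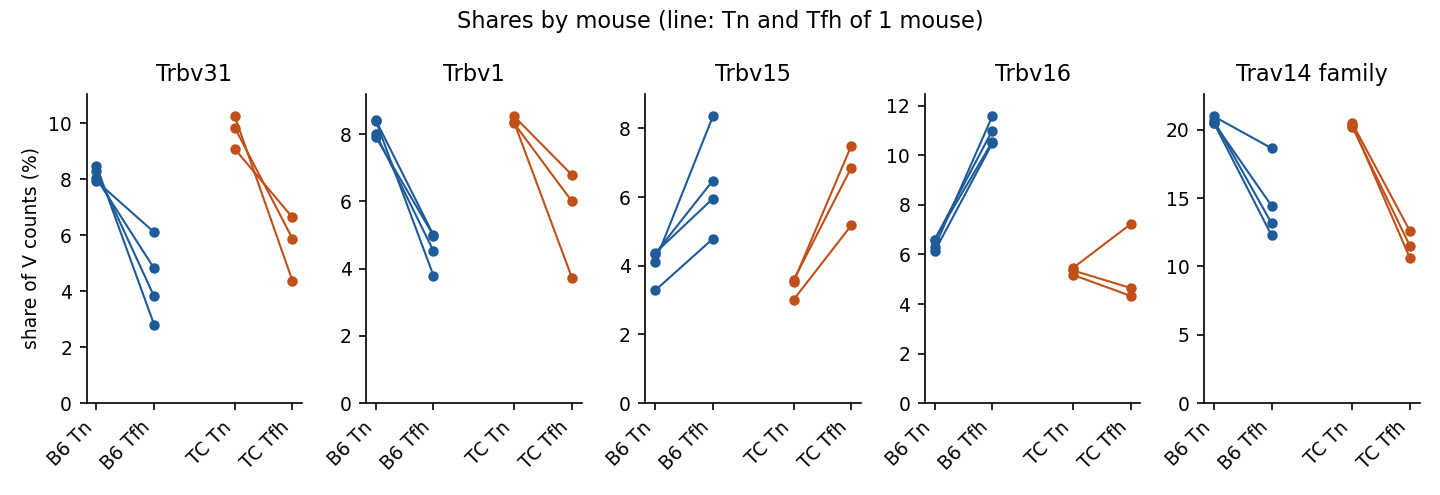
Shares of V counts in Tn and Tfh of the same mouse, joined by a line, for 4 Trbv segments and the summed Trav14 family (B6 mice in blue, TC mice in orange). Every line falls for Trbv31, Trbv1 and Trav14 and rises for Trbv15, while for Trbv16 all 4 B6 lines rise and only 1 of 3 TC lines does.

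A further 3 rises of usage were called in TC and not in B6, and the difference between strains was not called for any of them (adjusted p = 0.125, 0.542 and 0.367 for Trav13n-1, Trbv3 and Trbv23). Trav13n-1 rose from 0.297% to 0.547% of Trav counts in Tn to 0.520%, 1.66% and 1.33% in Tfh (1.40 ± 0.40, adjusted p = 0.00477), and passed under all 20 alternatives run for it. It is 99.7% identical in sequence to Trav13d-1, so its separate count is uncertain. The summed Trav13 family was not called in TC (0.11 ± 0.13, adjusted p = 0.503). Trbv3 rose by 0.67 ± 0.23 (adjusted p = 0.0218), a call lost without the Tfh library of TC mouse 4 (adjusted p = 0.0825) or without the Tn library of TC mouse 1 (0.0580) or 4 (0.0703). Trbv23 rose by 1.51 ± 0.55 (adjusted p = 0.0298). Its value was 0.50 without the Tfh library of TC mouse 2 (adjusted p = 0.211), and the call was also lost without the Tn library of TC mouse 1 (0.0838), 2 (0.0665) or 4 (0.0632).

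Trbv16 was the V segment with the smallest adjusted p between the Tfh of the strains by usage. It took 10.5%, 10.5%, 10.997% and 11.6% of Trbv counts in B6 Tfh and 7.22%, 4.33% and 4.65% in TC Tfh, against 6.60%, 6.12%, 6.58% and 6.29% in B6 Tn and 5.45%, 5.18% and 5.35% in TC Tn. In B6 all 4 mice had more of it in Tfh than in Tn (0.77 ± 0.11, adjusted p = 1.47e-05), and in TC 1 of 3 mice did (0.02 ± 0.14, adjusted p = 0.896). The share fell by 1.01 ± 0.12 in TC Tfh (adjusted p = 1.53e-05) and was not called in Tn (-0.26, adjusted p = 0.0955). The calls in B6 and between the Tfh of the strains held under all 21 alternatives, but the test of the difference between strains in the Tfh to Tn ratio was close to the threshold (-0.75 ± 0.17, adjusted p = 0.0407). It was lost under 15 of 21 alternatives (adjusted p from 4.03e-06 to 0.104), among them each single library left out except the Tfh library of TC mouse 1. With mouse as a block it was -0.76 (adjusted p = 0.00831). By level the same difference was -0.90 ± 0.20 (adjusted p = 0.0313), lost under 11 of 20 alternatives.

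Trbv26 and Trbv2 were the other segments with a called difference of that kind. In total 2 of 138 members were called by usage and 2 of 141 by level, against 2.35% and 2.32% of all genes, which is near those backgrounds. By usage 1 rose and 1 fell, against 0.968% and 1.38% of all genes, and by level 0 rose and 2 fell, against 0.953% and 1.37%. Trbv26 took 2.19%, 2.403%, 2.57% and 2.20% in B6 Tfh against 3.35%, 3.24%, 2.87% and 2.96% in Tn of those mice. In TC it took 1.91%, 2.46% and 2.61% in Tfh and 2.09%, 2.09% and 1.35% in Tn. Its share fell in TC Tn by 0.76 ± 0.14 (adjusted p = 0.000189), under every alternative. The difference between strains in its Tfh to Tn ratio was 0.75 ± 0.19 (adjusted p = 0.0482), lost under 15 of 21 alternatives, the block among them (adjusted p = 0.0591), and with each single library left out except the Tfh or Tn library of TC mouse 1. Trbv2 took 8.57%, 10.7%, 13.3% and 11.4% in B6 Tfh and 8.51% to 9.63% in B6 Tn, but 9.40%, 9.27% and 7.54% in TC Tfh and 10.8% to 11.2% in TC Tn. By level the ratio differed by -0.80 ± 0.15 between strains (adjusted p = 0.0096), which held except without both libraries of B6 mouse 2 (-0.76, adjusted p = 0.0508), and by usage by -0.64 (adjusted p = 0.0568).

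Further V segments were called between the strains, mostly in Tfh. Trav13n-1 rose by 1.99 ± 0.37 (adjusted p = 0.000258), from 0.219% to 0.444% of Trav counts in B6 Tfh to the TC values above. Its separate count is uncertain, and the summed Trav13 family rose by only 0.40 ± 0.12 (adjusted p = 0.0135). Trbv20 rose by 0.73 ± 0.18 (adjusted p = 0.00385), from 3.53%, 2.36%, 2.80% and 2.705% to 3.98%, 6.53% and 3.75%. Trav17 had 1.64%, 2.13%, 1.89% and 2.07% in B6 Tfh and 4.16%, 1.92% and 3.77% in TC Tfh, so that TC mouse 2 lay within the B6 range and the other mice above it (0.78 ± 0.21, adjusted p = 0.00493). Trav6-7-dv9 fell by 0.78 ± 0.22 (adjusted p = 0.00801). Trbv19 rose by 0.32 (adjusted p = 0.00671), a call lost without the Tfh library of TC mouse 2 (0.19, adjusted p = 0.07) and with the class size set by a median ratio (adjusted p = 0.12). In Tn, Trbv2 rose (0.31, adjusted p = 0.0372) and the pseudogene Trav8-2 rose (0.95, adjusted p = 0.0216), and alternatives lost these calls 9 of 21 and 4 of 20 times. Those for Trbv2 included the Tfh library of B6 mouse 2 and each Tn library left out except that of B6 mouse 4, and those for Trav8-2 the Tn libraries of B6 mice 1 and 4 and TC mice 2 and 4. The numbers of calls in Tfh and Tn were not tested against each other. The fit shared 1 estimate of spread per gene, although V shares varied more between mice in Tfh than in Tn. More calls in Tfh need therefore not mean larger differences.

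Mice of the same strain differed far more in their Tfh than in their Tn repertoire. The distance between 2 libraries was measured as the percentage of class counts that would have to move to another segment to make the shares equal. For Trbv its median over the 6 pairs of B6 mice was 11.6% in Tfh (9.54% to 14.5%) and 3.41% in Tn (2.54% to 3.78%), and over the 3 pairs of TC mice 12.98% in Tfh (12.0% to 13.2%) and 3.77% in Tn (3.76% to 3.88%). For Trav it was 24.0% and 7.87% in B6, and 19.8% and 8.98% in TC. In neither class did the Tfh and Tn ranges overlap. Counting noise alone gives a chi-square per degree of freedom of 1. In Tn of B6 mice Trav segments had a median of 1.03 (0.850 to 1.21), and in Tfh 10.8 (7.78 to 12.7). For Trbv the medians were 2.22 in B6 Tn, 29.8 in B6 Tfh, 2.34 in TC Tn and 21.8 in TC Tfh. Without B6 mouse 2 the Trbv values of the B6 pairs were 18.8 to 30.7 in Tfh and 1.42 to 2.34 in Tn.

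**Figure D5:**
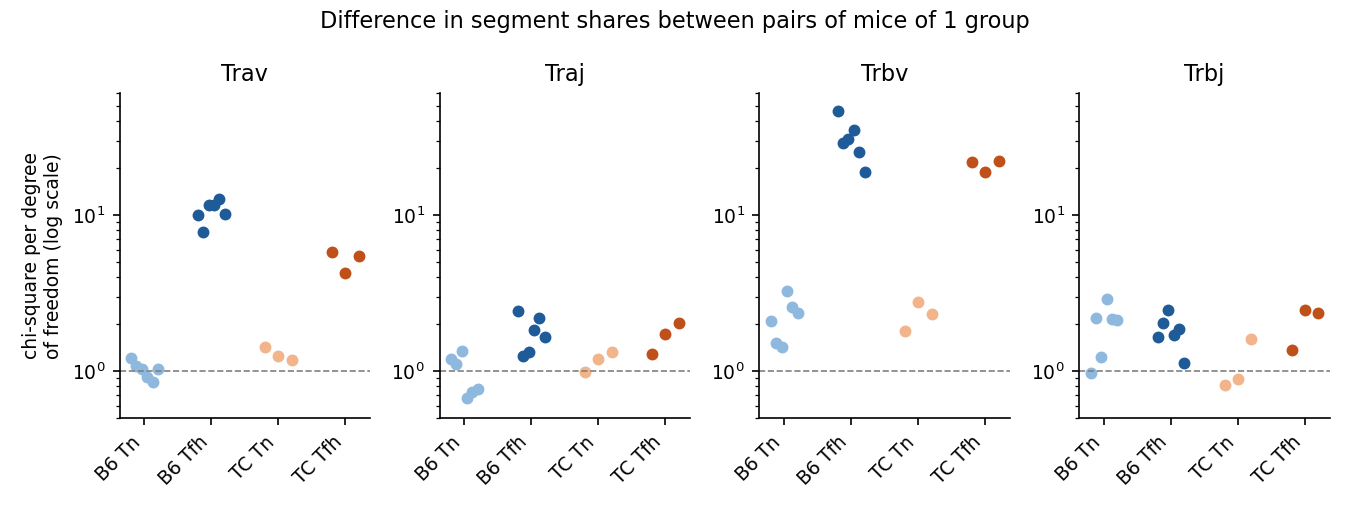
Chi-square per degree of freedom of segment counts between 2 mice of the same group, 1 point per pair (6 pairs for B6, 3 for TC), on a log axis. The dashed line at 1 is the level of counting noise; for Trav and Trbv the Tfh points lie above all Tn points, and for Traj and Trbj the groups overlap or lie near the line.

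The J segments showed smaller differences between Tfh and Tn, on fewer counts. The Traj medians were 0.936 in B6 Tn, 1.75 in B6 Tfh, 1.19 in TC Tn and 1.74 in TC Tfh, and the Trbj medians 2.14, 1.78, 0.887 and 2.37. Segment by segment, the coefficient of variation over B6 mice was larger in Tfh for 60 of 62 tested Trav and 22 of 22 Trbv segments, and over TC mice for 49 of 62 and 20 of 22. Its median for Trbv segments was 24.0% in B6 Tfh and 6.82% in B6 Tn. For Traj it was larger in Tfh for 21 of 38 segments in B6 and 19 of 38 in TC, and for Trbj for 5 of 14 and 10 of 14. Pairs of points share mice, and no test was made of these distances. The Tn of B6 and TC mice differed by 9.56% in Trav shares (chi-square per degree of freedom 1.51) and 6.47% in Trbv shares (6.42), both medians of 12 pairs.

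In Tfh some segments stood out in single libraries. Among shares of at least 1%, the largest ratio to the median of the other 13 libraries was that of Traj58 in the Tfh of B6 mouse 2, at 3.22% against 0.661%, resting on 20 counts. Better supported were Trav3-4 in B6 mouse 4 (1.47% against 0.313%, 59 counts), Trbv23 in TC mouse 2 (2.696% against 0.615%, 203 counts) and Trav5-1 in B6 mouse 4 (4.90% against 1.17%, 197 counts). Trav8d-1 in B6 mouse 1 took 2.82% against 0.771% (108 counts), and in TC mouse 2 Trav13n-1 took 1.66% (45 counts, with 1.33% in TC mouse 4) and Trav9d-1 1.22% (33 counts). Trav13n-1 and Trav9d-1 are 99.7% and 99.4% identical to another segment, so their separate counts are uncertain. Traj50 in B6 mouse 4, at 1.42%, rested on 11 counts. In Tn the 8 highest ratios were all of Traj segments, namely Traj53, Traj50, Traj38, Traj58 and Traj52, with 6 to 11 counts each. Counts per segment do not tell 1 clone from many.

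The evenness of usage was summarised as the effective number of segments, the number of equally used segments that would give the same Shannon entropy. For Trav it was 43.1, 43.3, 45.2 and 48.7 in B6 Tfh against 50.03 to 52.2 in B6 Tn, and 48.7, 48.004 and 44.5 in TC Tfh against 49.2 to 49.9 in TC Tn. It was lower in Tfh in all 7 mice, by 4.57 on average. With Trav families summed the mean difference had the other sign, at 0.419, and counts of near-identical segments within a family are uncertain. For Traj the effective number was 40.8 to 41.4 in B6 Tfh and 34.2 to 36.1 in TC Tfh, and 40.4 to 44.3 in B6 Tn against 35.7 to 37.5 in TC Tn. The TC values were all below the B6 values, by 6.07 and 5.81 on average, and by 1.37 and 1.95 when only segments with a mean of at least 10 counts were used. For Trbv it ran from 14.01 to 15.8 over all libraries.

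Segments of the invariant receptors of unconventional T cells were looked at because such cells can carry CD4. Trav11, the V segment of invariant NKT alpha chains, had 1 count over all 14 libraries, but its sequence is identical to that of Trav11d, so reads of either may not have been counted. Trav11n, a pseudogene 97.7% identical to it, had counts in 13 of 14 libraries. The 3 together held 0.0870% to 0.369% of Trav counts in TC Tfh and 0.0391% to 0.102% in TC Tn, with overlap, on 11 counts or fewer a library. In B6 they held 0% to 0.209% in Tfh and 0.0308% to 0.195% in Tn, higher in Tfh in 2 mice and lower in 2. These are sums with Trav11, the V segment of invariant NKT alpha chains. Traj18, the J partner of Trav11, held 1.10% to 2.61% of Traj counts with no call by usage. By level it rose in TC with its neighbours (1.49 ± 0.31 in Tfh, adjusted p = 0.00079, and 1.15 ± 0.34 in Tn, adjusted p = 0.00961), and the Tn call was lost without the Tn library of TC mouse 2 (adjusted p = 0.116). The 5 invariant NKT genes rose in Tfh against Tn in both strains, yet Zbtb16, their defining transcription factor, averaged 1.46 CPM in B6 Tfh and 1.92 in TC Tfh. Trav1 and Traj33, of the invariant MAIT alpha chain, held 0.241% to 1.17% of Trav counts and 0.143% to 1.43% of Traj counts, and Traj33 was too low to test. The usual beta partners of the invariant NKT chain, Trbv13-1, Trbv13-2, Trbv13-3 and Trbv29, had no usage call in any comparison, and Trbv1 fell in Tfh as described. Beta partners of the MAIT chain were not looked at as a set.

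Of the 194 members 141 passed the filter on low counts and 53 did not. The untested ones were 24 Trav (4 of them without any count), 22 Traj and 7 Trbv segments, and held 1.497%, 7.77% and 0.0506% of the counts of their class. Both Trbd and all Trbj and constant genes were tested. Of the members, 29 are annotated as pseudogenes: 11 Trav, 9 Traj, 8 Trbv and 1 Trbj.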

How the data were processed

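The deposited table holds read counts per gene symbol, with 1 column for each of the 14 libraries, all used. Alignment by STAR 2.7 to mm10 and use of DESeq2 are recorded in the submitters' processing notes. How reads were counted, with which strand setting and annotation, is not given in the sources used here, so reads shared by duplicated Trav segments, by Trbc1 and Trbc2, or by antisense genes may be misplaced. The reference genome is B6. RNA was column-purified and libraries were TruSeq Stranded, per the labels' protocols, which speak of wild-type and knockout mice although no label names a knockout. The source label of Tn samples names Tfh, and titles and cell type were followed.

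CPM, shares and tests were computed from the deposited counts, which hold no molecular identifiers. With its count minimum set to 10, filterByExpr kept 13427 genes. They were scaled by TMM and tested in R 4.3.3 with the robust quasi-likelihood fit of edgeR 4.0.16, with 4 group means, no block and 5 comparisons, called at an adjusted p below 0.05. The usage fit set the library size of V, D and J segments to their class total. Chi-square used segments with an expected count of at least 5. A count of 3 was 0.198 CPM in the smallest library and 0.149 in the largest. All members matched GENCODE M21, from which positions, lengths and sequences came. The fits were tested on simulated data.

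Members and lists were chosen with earlier results of these data known. Named segments were the constant genes, the 5 of highest mean share per class (3 for Trbj), invariant-chain segments and partners, up to 5 rises and 5 falls in share per comparison with the smallest adjusted p, and the 8 Tfh and 8 Tn pairs of segment and library with the highest share relative to the other libraries. Other names are said to be chosen after their values were seen.

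Replicate numbers mark the mouse, since both cell types came from each spleen, per the labels' protocols. Deviations of same-numbered libraries from their group means had correlations over all genes tested of 0.295, 0.113, 0.0424 and 0.204 for the B6 mice. For the TC mice they were 0.209, 0.207 and 0.256. Over the tested members the correlations were 0.214, 0.238, 0.0979 and 0.0281 in B6 and -0.0159, 0.148 and -0.0367 in TC. Differently numbered libraries were not compared in this way. Alternatives were DESeq2 1.42.0, RLE size factors, a class size by median ratio, families summed, no filter, a count minimum of 50, mouse as a block, and each library left out.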

Additional observations from a re-analysis of the deposited data

Results flagged for a closer look

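Among 130 groups of 4 B6 libraries examined for a value far from the others, 10 held one, and chance gives about 1 in 20. Trbj counts per 100 Trbc counts were 4.92 in the Tfh of B6 mouse 2 and 6.67 to 6.87 in the other B6 Tfh. The same library had 39.3 CPM of Trdc against 2.53 to 4.47. Trbc1 made up 39.96% of Trbc counts in the Tn of B6 mouse 3 and 33.8% to 34.8% in the others. The share of Traj6 was 7.07% in the Tfh of B6 mouse 3 (4.85% to 5.14% in the others), and that of Trav9d-1 was 0.770% in the same library (0.0746% to 0.183%). In the Tfh of B6 mouse 4 Trav3-4 held 1.47% (0.174% to 0.307%) and Trav5-1 held 4.90% (1.18% to 1.37%). Trbj1-2 was low in the Tfh of B6 mouse 1, at 6.35% (7.69% to 7.79%). In Tn, Trav9-4 was 2.68% in B6 mouse 4 (3.28% to 3.39%) and Trbv23 was 0.504% in B6 mouse 2 (0.767% to 0.802%).

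The edgeR interaction test called a strain difference in the Tfh to Tn ratio for 3 Trbv segments. These were 2 of 138 members by usage and 2 of 141 by level, near the 2.35% and 2.32% of all genes. By level the log2 difference was -0.90 ± 0.20 for Trbv16 (adjusted p = 0.0313) and -0.80 ± 0.15 for Trbv2 (adjusted p = 0.0096). By usage it was -0.75 ± 0.17 for Trbv16 (adjusted p = 0.0407) and 0.75 ± 0.19 for Trbv26 (adjusted p = 0.0482). Both usage calls were lost under 15 of 21 alternatives. The level call was lost under 11 of 20 for Trbv16 and 1 of 20 for Trbv2.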

How the results depend on the processing

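None of the 258 member calls changed direction under its alternatives (5186 values in all), and 148 of them passed the threshold under each, but the Trav effective number, which has no test, changed sign with families summed. With a count minimum of 50, calls between strains numbered 37 in Tfh and 29 in Tn by level and 18 and 7 by usage, since fewer members were tested. With no filter 1 interaction was called by level and 1 by usage, and likewise 1 and 1 without both libraries of B6 mouse 2, an alternative chosen after seeing the data, as were class totals without pseudogenes; the cause was not tested. With families summed, 17 usage calls between cell types were made in B6 from fewer units tested, the Trav effective number differed by 0.419 between Tfh and Tn, and by 0.178 between TC and B6 Tn. The Traj effective number differed between strains by -1.37 in Tfh and -1.95 in Tn over segments with a mean of at least 10 counts, and by -8.50 in Tn after thinning to equal counts. The replicate block for the mouse gave 4 usage interactions instead of 2, and 57, 45, 50, 34 and 3 level calls and 29, 11, 31 and 21 other usage calls. Leaving out 1 library in turn gave, by level, 47 to 58 calls between strains in Tfh, 38 to 51 in Tn, 30 to 48 between cell types in B6, 15 to 32 in TC and 1 to 3 interactions. By usage the ranges were 19 to 33, 5 to 13, 24 to 32, 12 to 23 and 0 to 3. Over the 20 alternatives by level, 9 to 26 Traj segments rose in TC Tfh and 9 to 28 in TC Tn, with 0 falls, and 9 were tested at the count minimum of 50. Trbj rises were 8 to 11 and 13 to 14, with 0 falls. By usage Traj rises were 2 to 11 and falls 0 to 9 in TC Tfh, and 3 to 7 and 0 to 4 in TC Tn. Depth was lowest in Traj, where a library held 507 to 1773 counts.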
